A study of Mus musculus with 4 samples.

Results

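The quantity described here is the difference between 2 embryonic mouse skins in how each gene's messenger RNA divides between dermal cells labelled Axin2-positive and dermal cells labelled Axin2-negative. Cells of ventral foot skin (embryonic stage E17.5) and of dorsal back skin (embryonic stage E14.5) were sorted by fluorescence on an Axin2-LacZ reporter, and each of the 4 groups (foot and back, each labelled Axin2-LacZ pos or Axin2-LacZ neg) holds 1 library. For each gene the sort ratio was taken as the log2 of (FPKM + 1) in the library labelled positive over the same value in the library labelled negative, and the back ratio was subtracted from the foot ratio. FPKM counts fragments scaled by transcript length and by library size, so levels can be compared between genes. Adding 1 understates the ratios of low genes. Each library was first divided by a median-ratio factor, and FPKM values are printed as deposited. Of 33134 gene units named in all 4 tables, 8199 met the rule of an OK status and a level above 0 in all 4 libraries with at least 5 FPKM in 1 of them. Enho and Msh3 stood just inside that minimum (highest levels 5.005 and 5.006 FPKM), and Atg4b and Sh2b1 just outside it (4.99 FPKM each).

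Axin2 is a feedback inhibitor and a direct target of canonical Wnt signalling, the pathway in which a Wnt ligand keeps beta-catenin from being degraded and lets it act with TCF and LEF factors on DNA. In embryonic skin, dermal Wnt activity is needed for the dermis to instruct the epidermis, and mesenchymal signals of the BMP, FGF and Hedgehog families help to set which appendage forms. Ventral foot skin of the mouse forms sweat glands and back skin forms hair. A gene can go with the reporter sort in the same way in both skins, in 1 skin alone, or in opposite ways, and these patterns are described in turn.

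With 1 library in each group, no difference has a replicate check and no p-value is given. A ± value is a half-width made from the authors' bounds, which cover counting and read assignment in a library, and not the spread between embryos. Site and stage cannot be told apart. The labels do not say how many embryos were pooled, whether both fractions of a skin came from the same embryos, or whether the reporter allele was heterozygous. The bounds were wider in the foot. Their half-width, as a median over genes, was 23.1% of the level in the foot positive and 14.1% in the foot negative library, and 9.07% and 9.95% in the back positive and negative libraries. The SD over genes was 0.87 for the foot ratio and 0.50 for the back ratio, so the difference varied more with the foot ratio. Of the 8199 genes, 3747 are called steady: each level lay inside its own bounds, the half-width of the difference was at most 0.75, and the gene was neither a joined locus nor a small RNA or predicted gene. Genes named below are steady unless said otherwise. The fibroblast genes Col3a1 (580 to 2135 FPKM, not steady) and Pdgfra (14.2 to 57.8 FPKM) were detected in all 4 libraries, and all 14 fibroblast markers examined met the rule.

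Axin2 (mm9, chromosome 11, 108781663 to 108812098) itself stood at 9.65 FPKM in the foot library labelled positive, 12.9 in the foot library labelled negative, 4.49 in the back library labelled positive and 3.13 in the back library labelled negative. Its transcript was thus higher in the fraction labelled negative in the foot, with overlapping bounds (7.10 to 12.5 and 10.2 to 15.3), and in the fraction labelled positive in the back, without overlap. The foot ratio was -0.14 ± 0.49 and the back ratio 0.28 ± 0.26, which gave a difference of -0.42 ± 0.56, smaller than its half-width. All directions below follow the labels. In the foot the Axin2 transcript did not bear them out, since its ratio was smaller than its half-width. Exchanging the 2 foot labels would change the sign of each foot ratio, and genes described as opposite and as like would change places.

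The foot and back ratios were almost unrelated across genes. Over the 8199 genes Pearson's r was 0.02 and Spearman's rho 0.04, and over the 3747 steady genes they were 0.06 and 0.06. These correlations are across genes that share the same 4 libraries, and they are given as a description. At a ratio of at least 0.5 in size in both skins (1.41-fold), 454 genes had the same sign (286 higher, 3.49%, and 168 lower, 2.05%, in both positive libraries) and 438 had opposite signs (195 higher in the foot positive and lower in the back positive library, 2.38%, and 243 the reverse, 2.96%). Among steady genes these totals were 199 and 134. A ratio of at least 1 was more common in the foot (753 higher, 9.18%, and 721 lower, 8.79%) than in the back (248 higher, 3.02%, and 187 lower, 2.28%). The difference was at least 1 on the log2 scale (2-fold) in favour of the foot for 906 genes (11.1%) and in favour of the back for 996 (12.1%). Among steady genes the counts were 319 (8.51%) and 339 (9.05%). The difference lay above its own half-width for 19% of genes and below it, on the negative side, for 20.7%. With FPKM as deposited and no scaling, the split was 537 against 1810 (22.9% in favour of the foot, against 47.6%), and the median difference over all genes moved from 0.00 to -0.41. List medians below are for the scaled values, and where the unscaled median has another direction it is given. Just inside the limit stood Col4a1 (difference 1.0006) and Dhx15 (-1.001), and just outside it Thap11 (0.996) and Timp2 (-0.999).

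**Figure D1:**
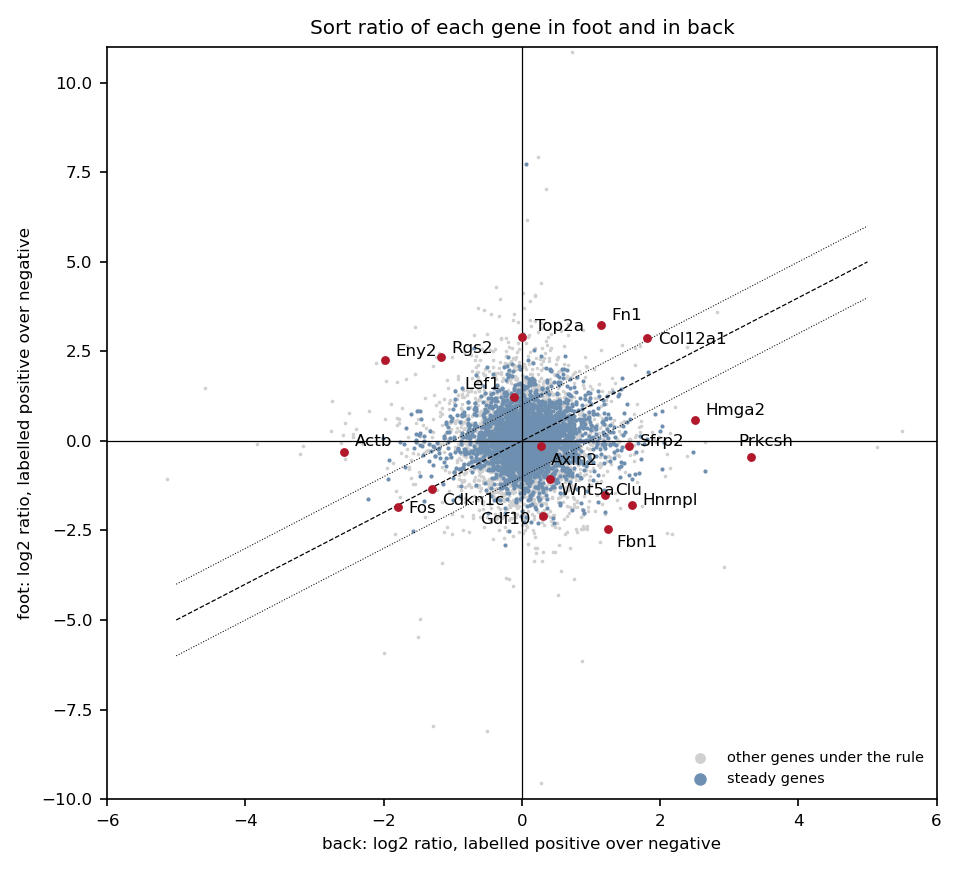
Each point is 1 of 8199 genes, placed by its log2 sort ratio in the back (horizontal axis) and in the foot (vertical axis), with the 3747 steady genes in blue. The dashed line marks equal ratios, the dotted lines mark a difference of 1, and Fbn1, with -2.45 in the foot and 1.24 in the back, lies in the lower right field while Eny2 and Rgs2 lie in the upper left.

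In each gene 1 library is the one farthest from the other 3. Over all 8199 genes it was the foot library labelled positive for 37.0% and the foot library labelled negative for 28.2%. Among the 906 genes with the higher foot ratio these shares were 46.5% and 33.6%, and among the 996 with the lower foot ratio they were 42.7% and 33.6%. Srrm2, a splicing cofactor gene with the highest difference among steady genes, read 2173 FPKM in the foot library labelled positive, 10.9 in the foot negative, 14.46 in the back positive and 12.1 in the back negative. One value out of 4 was high. Prkcsh, which encodes a subunit of glucosidase II, had the lowest difference and read 15.7, 25.9, 226 and 19.4 FPKM in the same order, so that the back library labelled positive stood out.

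Genes with opposite ratios were few. A ratio of at least 1 in size in both skins with opposite signs held for 52 genes: 25 were higher in the foot positive and lower in the back positive library (0.305% of genes), and 27 the reverse (0.329%). Among steady genes the numbers were 2 (0.0534%) and 9 (0.24%). Eny2, described with the reverse pattern below, had the largest of the 11 differences in size. Of the 9 lower in the foot positive library, the largest in size was that of Fbn1 (mm9, chromosome 2, 125126330 to 125333729), which encodes fibrillin-1, the main protein of the microfibrils that carry elastin and store latent TGF-beta. Fbn1 stood at 8.08 FPKM (bounds 7.12 to 9.04) in the foot positive library and 58.8 (55.0 to 61.0) in the foot negative, against 18.1 (17.54 to 18.9) in the back positive and 6.29 (5.90 to 6.68) in the back negative. It was high in the labelled negative cells of the foot and in the labelled positive cells of the back, with no overlap of bounds in either skin. The ratios were -2.45 ± 0.19 and 1.24 ± 0.10, and the difference was -3.69 ± 0.21.

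Clu and Pdpn had the same pattern. Clu (mm9, chromosome 14, 66587320 to 66600385) encodes clusterin, a secreted chaperone, and read 11.3, 40.7, 12.3 and 4.26 FPKM (foot positive, foot negative, back positive, back negative; the same order is used below), a difference of -2.70 ± 0.60. Pdpn encodes podoplanin, a surface glycoprotein of fibroblasts and lymphatic endothelium, and read 11.2, 30.3, 11.6 and 4.61 FPKM, a difference of -2.13 ± 0.44. In both genes the foot negative library was the highest and the back negative library the lowest. Hnrnpl, an RNA-binding regulator of splicing, read 30.5, 128, 153 and 44.2 FPKM and differed by -3.37 ± 0.34. The other steady genes of this direction were Rab11fip2, Ccnt1, Ktn1, Dcun1d5 and Stx18, with differences from -3.20 to -2.55. The reverse pattern was shown by Rgs2 and Eny2. Rgs2 (mm9, chromosome 1, 145846468 to 145851291), a brake on G protein signalling, read 26.8, 5.29, 11.0 and 22.8 FPKM, with a foot ratio of 2.34 ± 0.46, a back ratio of -1.17 ± 0.25 and a difference of 3.51 ± 0.52. Eny2, a subunit of a histone-modifying and RNA export complex, read 169, 41.2, 19.5 and 70.2 FPKM. Its difference was 4.24 ± 0.28. Mfap5, Efemp1 and Id1 were also opposite by these limits but were not steady, since a value lay outside its own bounds or the half-width was too wide.

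**Figure D2:**
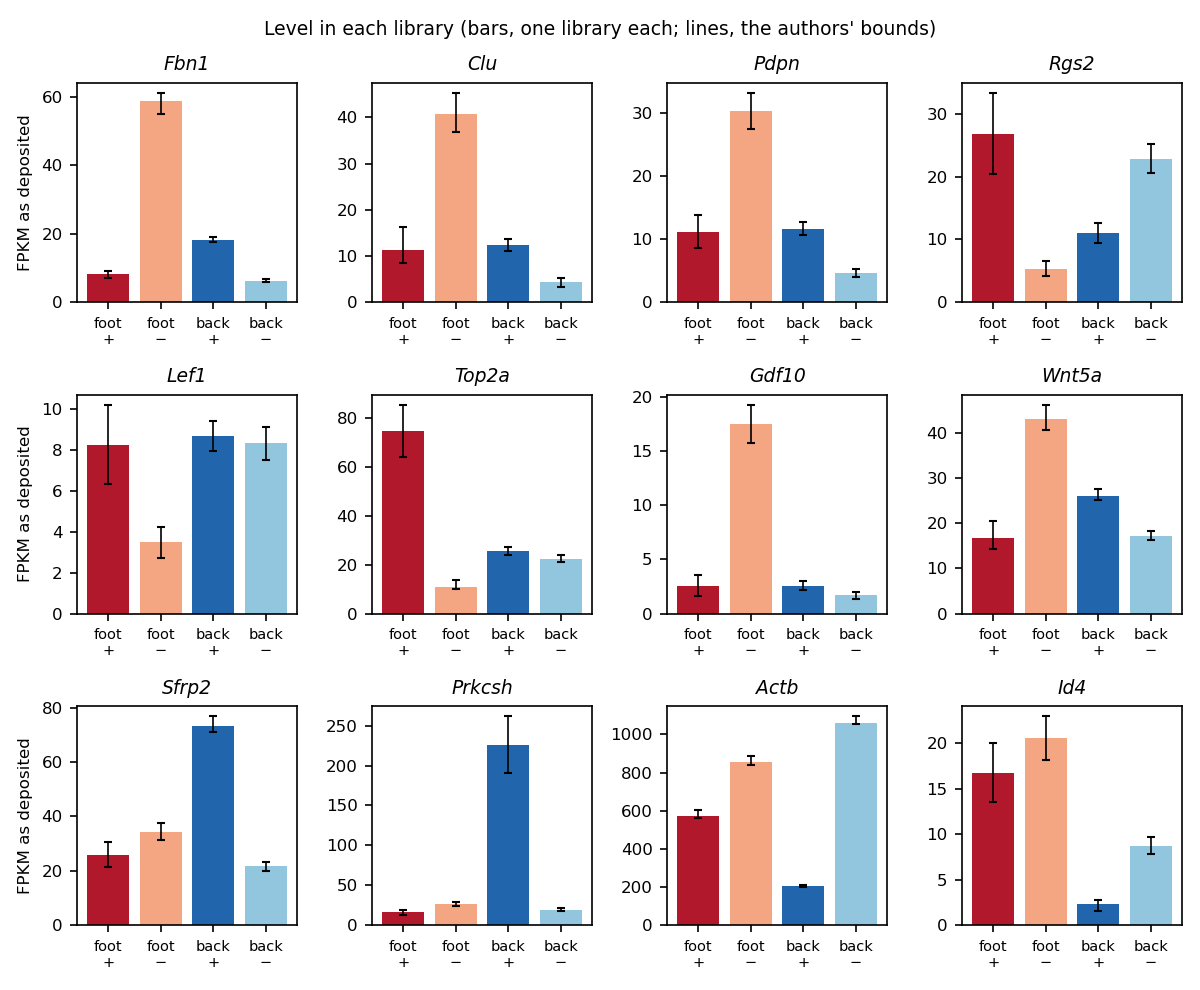
FPKM as deposited (vertical axes) of 12 genes in the 4 libraries, labelled positive (+) and negative (−), 1 library per bar, with lines for the authors' bounds. The top row holds genes with opposite ratios, the middle row genes that differ between the fractions in the foot, and the bottom row genes that differ in the back; Fbn1 reads 58.8 in the foot negative and 18.1 in the back positive library.

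The list of matrix genes that holds Fbn1 leaned the same way, with Fbn1 itself counted in. Of 18 elastic fibre and microfibril genes under the rule (of 21 listed), 4 had a difference above 0 and 14 below, against 50.2% of all genes above 0, and none was at least 1 above while 6 were at least 1 below (12.1% of all genes were). The list median was -0.14 in the foot, 0.40 in the back and -0.36 for the difference, where all genes had 0.00. Over the 13 steady members these medians were -0.04, 0.45 and -0.20. A foot ratio below 0 with a back ratio above 0 held for 9 of the 18, against 24.6% of all genes. Loxl1, an enzyme that crosslinks elastin, read 22.5, 53.2, 12.2 and 5.85 FPKM, with ratios of -0.95 ± 0.30 and 0.80 ± 0.34. Its levels were higher in the negative cells of the foot and in the positive cells of the back. Fbln2, a fibulin of microfibrils, read 152, 249, 24.4 and 8.92 FPKM, and Lox, a lysyl oxidase, read 123, 123, 57.7 and 22.02 FPKM. Both had a back ratio above 1 (1.20 and 1.18) and a small foot ratio (-0.45 and 0.26). Eln, Mfap5 and Efemp1, which were not steady, had differences of -2.12, -3.02 and -3.28. The steady members of highest level had no such split: Mfap2 (859, 1133, 411 and 353 FPKM) and Mfap4 (267, 403, 39.6 and 38.2 FPKM) differed by -0.18 ± 0.12 and -0.20 ± 0.16. The foot negative library, high for several of these genes, also held the highest sums of mast cell markers (271 FPKM, against 3.15 in the foot positive library) and skeletal muscle markers (50.1 against 9.30), and their part in the result was not tested.

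Genes for enzymes that fold, modify and remodel collagen mostly had a difference below 0. Of 20 genes for collagen processing and chaperones of the endoplasmic reticulum, 3 had a difference above 0 and 17 below, against 50.2% of all genes above 0. The median was -0.30 in the foot, 0.17 in the back and -0.41 for the difference. None of the 20 was at least 1 above (11.1% of all genes were), and 3 were at least 1 below, near the 12.1% of all genes. In 10 of the 20 the foot ratio was below 0 and the back ratio above 0. In 5 both were above 0 and in 5 both were below 0. In none was the foot ratio above 0 with the back ratio below it (23.1% of all genes had that pattern). Hspa5, the chaperone BiP, read 143, 250, 394 and 243 FPKM, a difference of -1.05 ± 0.14. It was lowest in the foot positive and highest in the back positive library. Lepre1, a collagen prolyl 3-hydroxylase, read 20.0, 31.0, 31.7 and 12.2 FPKM and differed by -1.50 ± 0.44. Plod1 and Plod2, lysyl hydroxylases, differed by -0.91 ± 0.46 and -0.83 ± 0.61, and for both the back ratio was near 0 (-0.01 and -0.05). Of 14 matrix protease and inhibitor genes, 2 had a difference above 0 and 12 below, with a median of -0.80 that was -0.34 over the steady members. Of these 14 genes 1 was at least 1 above and 3 at least 1 below. Mmp14, a membrane collagenase, differed by -0.87 ± 0.28 and Timp2, an inhibitor of metalloproteinases, by -0.999 ± 0.22. Timp3 went the other way, at 14.2, 7.70, 3.99 and 4.44 FPKM, a difference of 1.304 ± 0.33.

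**Figure D3:**
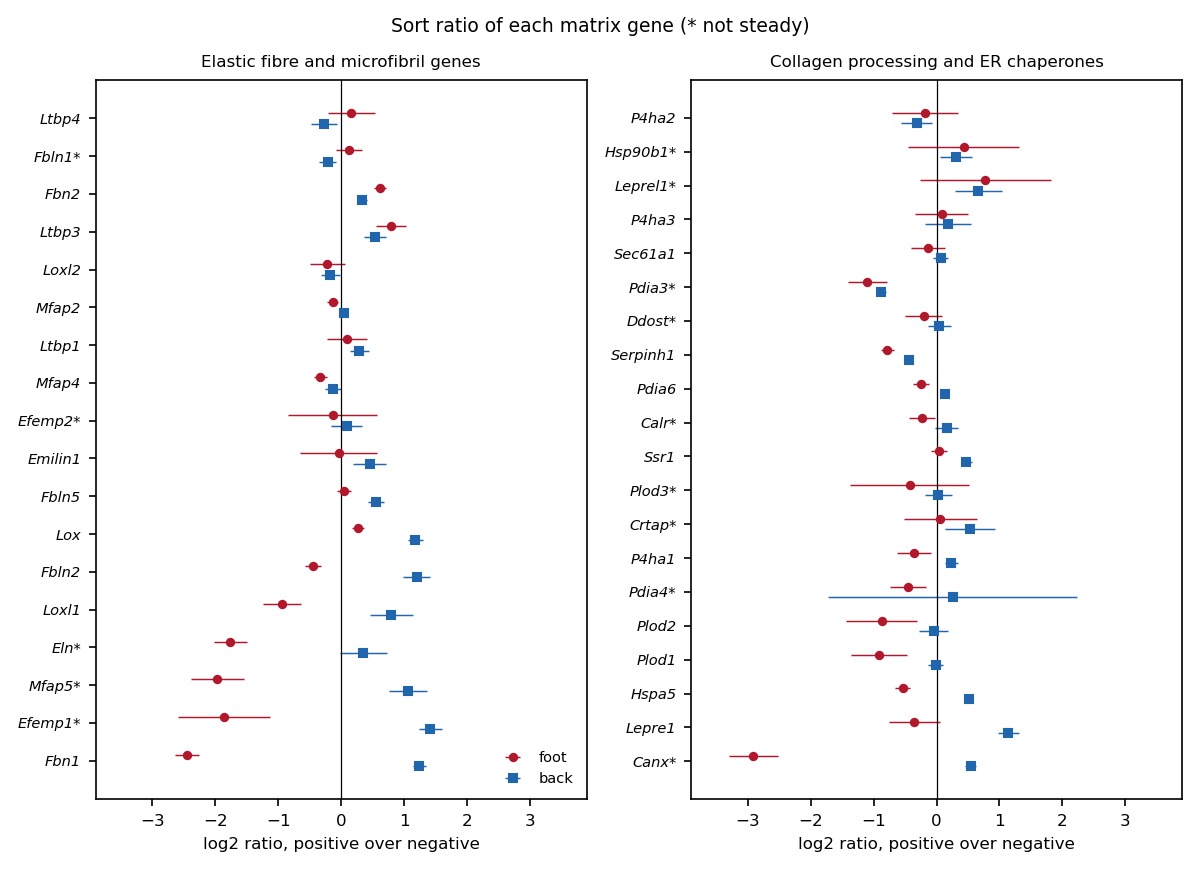
Log2 sort ratios (horizontal axes) of the elastic fibre genes (left) and the collagen processing genes (right) in the foot (red circles) and the back (blue squares), with half-widths as lines and an asterisk on genes that are not steady. Fbn1 stands at the foot of the left panel with -2.45 and 1.24, and most red points lie to the left of the blue ones.

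Other matrix lists leaned the same way or stood even, with named genes of both signs. Of 14 matricellular and hyaluronan matrix genes 3 had a difference above 0 and 11 below, of 10 fibrillar and fibril-associated collagens 3 and 7, of 16 basement membrane genes 6 and 10, and of 6 small leucine-rich proteoglycans 3 and 3. Their median differences were -0.31, -0.32, -0.18 and -0.19. In the same order, 2, 3, 3 and 0 genes were at least 1 above, and 3, 3, 4 and 2 at least 1 below. Of all genes 11.1% and 12.1% were. The collagen I genes Col1a1 and Col1a2, which were not steady, went opposite ways, with differences of -1.64 and 1.42. Nov and Spon2, a CCN family protein and a spondin, had opposite ratios that did not both reach 1, with differences of -1.83 ± 0.44 and -1.64 ± 0.44. Col14a1, a fibril-associated collagen, read 87.6, 61.9, 29.0 and 6.15 FPKM and was higher in both positive libraries, with a foot ratio of 0.75 and a back ratio of 1.92. Col16a1 read 71.6, 91.6, 7.77 and 24.0 FPKM and was lower in the back positive library alone, a difference of 1.61 ± 0.48. Hspg2, the gene of perlecan, and Col5a1 were lower in the foot positive library alone, with differences of -1.38 ± 0.42 and -1.04 ± 0.14. Pdgfra, the receptor that marks dermal fibroblasts, read 57.8, 50.7, 40.2 and 14.2 FPKM. It was lowest in the back negative library and differed by -0.84 ± 0.15. Of 10 lower dermis and fascia genes 1 had a difference above 0 and 9 below, with a median of -1.01, but only 3 of them were steady. Among these, Cd34 differed by -0.90 ± 0.28. Mfap5 and Col14a1 are counted in this list and also in matrix lists above. Of 9 upper dermis genes, 8 of them steady, 5 had a difference above 0 and 4 below, with a median of 0.04.

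Genes that went with the sort in the foot alone made up the largest class. A ratio of at least 1 in the foot with under 0.5 in the back and a difference of at least 1 held for 448 genes higher in the foot positive (5.46%) and 429 higher in the foot negative library (5.23%); 154 (4.11%) and 117 (3.12%) of these were steady, as shares of the steady genes. The same in the back alone held for 99 genes higher in the positive (1.21%) and 75 higher in the negative library (0.915%); 47 (1.25%) and 30 (0.801%) of these were steady. The wider bounds and larger spread of the foot libraries go with this imbalance, and their part in it was not tested. Emp1, an epithelial membrane protein, read 116, 16.5, 73.8 and 64.3 FPKM. Only the foot negative library was low, and the difference was 2.96 ± 0.21. On the other side stood Sulf2, an enzyme that trims heparan sulfate, with 9.999, 53.1, 27.9 and 20.0 FPKM and a difference of -2.31 ± 0.56. Nefl, the neurofilament light chain gene, read 0.194, 6.11, 1.29 and 0.965 FPKM, so that the foot negative library alone was above the minimum.

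Wnt genes are described by their roles, starting with the targets. Of 15 Wnt feedback and target genes, 12 had a difference above 0 and 3 below, and 2 were at least 1 above, near the 11.1% of all genes. The list median was 0.35 in the foot, -0.03 in the back and 0.40 for the difference. In the unscaled values the back median was 0.16 and the median difference 0.00. Lef1, a DNA-binding partner of beta-catenin, read 8.25, 3.48, 8.66 and 8.31 FPKM. The foot negative library was low and the other 3 were alike, and the difference was 1.34 ± 0.45. Tnfrsf19, a TNF family receptor gene that Wnt signalling can induce, read 4.76, 1.58, 11.4 and 9.17 FPKM, a difference of 1.16 ± 0.48. Prickle1, of the planar polarity branch, and Ccnd1, cyclin D1, differed by 0.78 ± 0.32 and 0.55 ± 0.27. Apcdd1, a membrane inhibitor of the pathway and the steady gene of highest level in the list, read 26.6, 37.0, 69.0 and 61.9 FPKM and differed by -0.18 ± 0.21, less than its half-width. Nkd1, a feedback inhibitor, differed by 0.40 ± 0.30.

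Of 13 Wnt ligand genes 2 met the rule. Wnt5a, which acts mainly outside the beta-catenin route, read 16.7, 43.1, 26.1 and 17.1 FPKM. It was highest in the foot negative library, with a foot ratio of -1.06 ± 0.29 and a back ratio of 0.41 ± 0.12. Wnt11, the other ligand gene, differed by -0.24 ± 0.70, less than its half-width. Of 7 receptor and co-receptor genes 2 had a difference above 0 and 5 below. Lgr4, a receptor of R-spondins, read 11.0, 26.9, 2.26 and 1.46 FPKM and differed by -1.27 ± 0.41. Fzd3, a frizzled receptor, differed by -1.40 ± 0.74, and Lrp6, the co-receptor, by 0.55 ± 0.32. Ryk, a Wnt receptor and the gene of highest level in the list, read 13.9, 13.8, 18.01 and 15.4 FPKM and differed by less than its half-width, 0.21 ± 0.37.

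Secreted modulators of Wnt ligands mostly had a back ratio above 0 (10 of 11) and split in the foot, where 7 had a ratio above 0 and 4 below. Of the 11 genes 2 had a difference above 0 and 9 below, and the list median was 0.39 in the foot and 0.69 in the back. Sfrp2, a secreted frizzled-related protein that binds Wnt ligands, read 25.9, 34.4, 73.5 and 21.6 FPKM. Only the back positive library was high, with a foot ratio of -0.14 ± 0.30 and a back ratio of 1.55 ± 0.12. Sfrp1 read 1.33, 3.55, 13.8 and 6.93 FPKM and had opposite ratios of -0.74 ± 0.37 and 0.75 ± 0.14. Dkk2 and Dkk3, of the Dickkopf family, were higher in both positive libraries, with ratios of 0.87 and 0.81 for Dkk2 and of 0.63 and 0.68 for Dkk3. Their differences, 0.06 ± 0.41 and -0.05 ± 0.36, were smaller than their half-widths. Wif1, a Wnt-binding inhibitor, read 48.7, 52.0, 55.5 and 29.7 FPKM and differed by -0.54 ± 0.23.

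Other signals of the mesenchyme gave named differences of both signs. Gdf10, a BMP family ligand, read 2.58, 17.52, 2.58 and 1.70 FPKM, so that the foot negative library stood alone, and differed by -2.40 ± 0.52. Inhba, which encodes the activin A subunit, read 0.155, 4.31, 6.002 and 4.46 FPKM. Here the foot positive library stood alone at the low end, with a difference of -2.12 ± 0.71. Fst, the gene of the activin and BMP antagonist follistatin, differed by 1.06 ± 0.33 and Smad5, a transducer of BMP signals, by 1.03 ± 0.29. Id4, a BMP response gene, read 16.8, 20.6, 2.30 and 8.73 FPKM. It was lower in the back positive library and alike within the bounds in the foot, a difference of 1.72 ± 0.56. Id3 was higher in both positive libraries (ratios 0.98 and 0.38). Over the 8 BMP response genes under the rule, 6 had a difference above 0 and 2 below, with a median of 0.58. Of 8 Hedgehog pathway genes 2 had a difference above 0 and 6 below. Boc and Cdon, co-receptors of Hedgehog ligands, had higher back ratios (0.56 and 1.19) than foot ratios (0.01 and 0.78), and Smo, the signal transducer, differed by 0.05 ± 0.34. Gas1, the steady gene of highest level in the list, went the other way, with a difference of 0.42. Of 7 FGF pathway genes 5 had a difference above 0 and 2 below, with a median of 0.32 that was -0.07 in the unscaled values. Spred1, a feedback inhibitor, differed by 0.64 ± 0.22 and Dusp6, another, by -0.63 ± 0.46.

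Most genes of the retinoic acid and insulin-like growth factor pathways had a difference below 0. Of 8 retinoic acid genes 2 had a difference above 0 and 6 below, with a median of -0.68 that was -1.01 over the 4 steady members. Cyp26b1, the enzyme that degrades retinoic acid, went against its list and read 10.8, 5.06, 1.37 and 3.11 FPKM. Its ratios were opposite, 1.16 ± 0.29 in the foot and -0.97 ± 0.19 in the back. Dhrs3, which reduces retinal, had the reverse signs, with a difference of -1.38 ± 0.68. Of 11 genes of the insulin-like growth factor pathway 2 had a difference above 0 and 9 below, with a median of -0.93 that was -0.59 over the 5 steady members. Igfbp5, a binding protein that holds these factors, read 3.55, 20.3, 34.5 and 30.2 FPKM. It was low in the foot positive library alone and differed by -1.96 ± 0.28. Igfbp3 differed by -1.52 ± 0.28 and Igfbp2 by 0.80 ± 0.26. Cxcl12, a chemokine of dermal fibroblasts, read 46.0, 104, 57.5 and 36.6 FPKM, and its ratios were -0.90 in the foot and 0.46 in the back. Tgfbr3, a TGF-beta co-receptor, was higher in both positive libraries and more so in the foot (ratios 1.86 and 0.59).

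**Figure D4:**
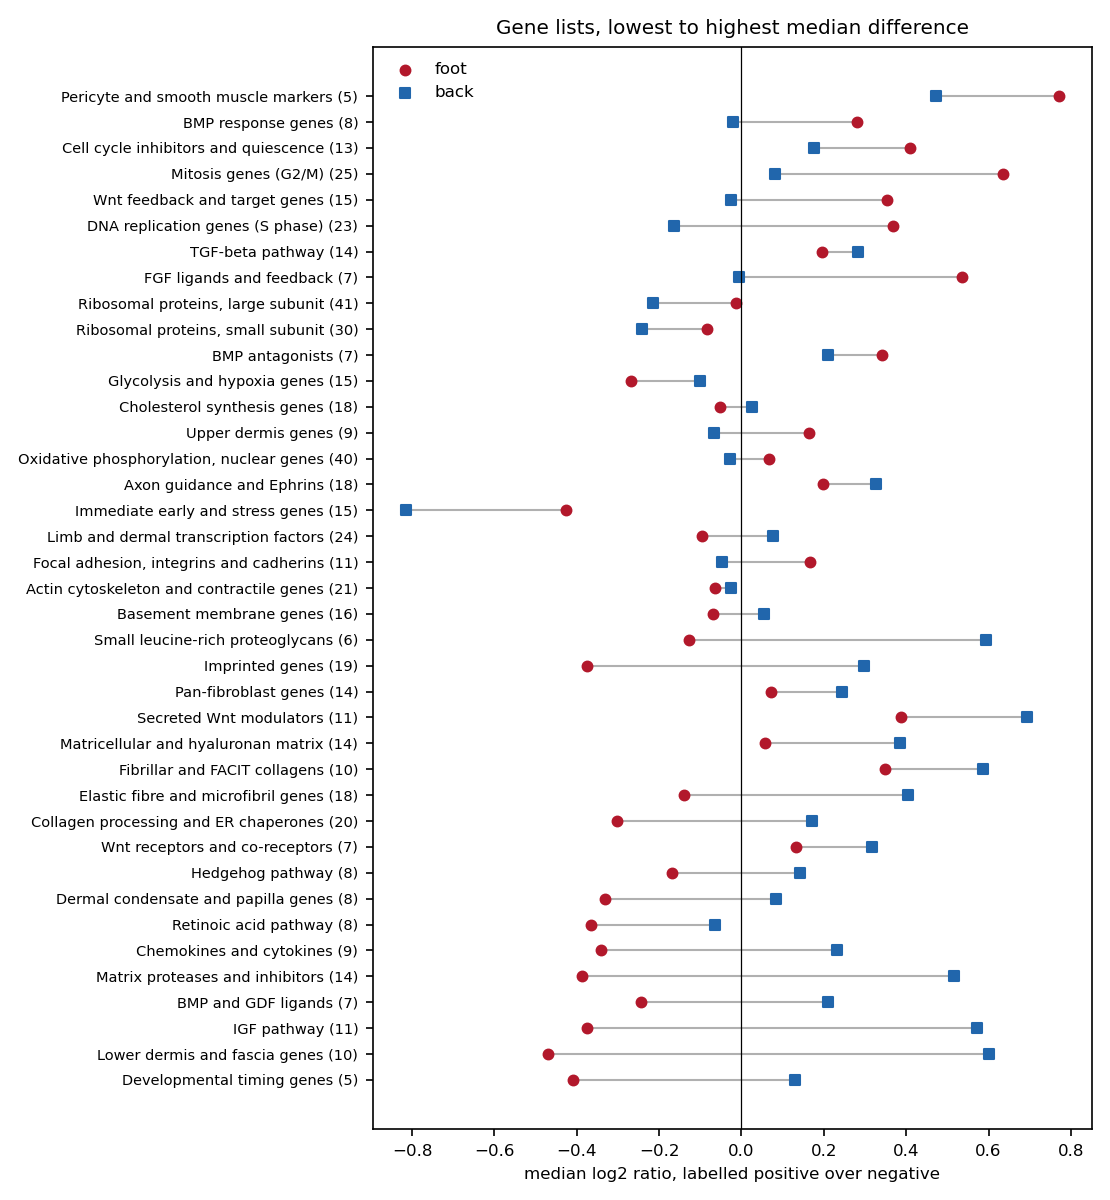
Median log2 sort ratio (horizontal axis) of each gene list with at least 5 genes under the rule, in the foot (red circles) and the back (blue squares), ordered by the median difference, with the number of genes in parentheses. Values are scaled; the IGF and lower dermis lists stand near the bottom with foot medians of -0.37 and -0.47, and mitosis genes stand near the top with 0.64 in the foot and 0.08 in the back.

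In the scaled values, mitosis genes leaned to the positive library in the foot and less so in the back. Of 25 mitosis genes 23 had a foot ratio above 0, against 50% of all genes, and 18 had a back ratio above 0, against 51.5% of all genes. The list medians were 0.64 and 0.08, and 0.40 for the difference, which was -0.01 in the unscaled values. The difference was above 0 for 17 and below for 8, at least 1 above for 6 (11.1% of all genes were) and at least 1 below for 1 (12.1% of all genes). Top2a, the topoisomerase that untangles chromosomes, read 74.8, 10.9, 25.6 and 22.5 FPKM. The foot positive library was high and the foot negative library low, while the back libraries were alike, and the difference was 2.90 ± 0.40. Kif20a, a kinesin of cytokinesis, read 29.6, 8.01, 33.7 and 22.3 FPKM and differed by 1.57 ± 0.27. Racgap1, of the central spindle, differed by 1.17 ± 0.61 and Mki67, the proliferation marker, by 1.07 ± 0.23. Tpx2, a spindle assembly factor, went the other way, at 11.5, 7.24, 57.5 and 11.9 FPKM with a difference of -1.20 ± 0.53. Birc5 and Cdk1, the mitosis genes of highest level, differed by 0.67 ± 0.25 and 0.52 ± 0.23.

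DNA replication genes had a median of 0.37 in the foot, -0.16 in the back and 0.38 for the difference. The difference was above 0 for 20 of 23 and at least 1 above for 5, against 50.2% and 11.1% of all genes. In the unscaled values the back median was 0.00 and the median difference -0.02. Over the 18 steady members the scaled medians were 0.21, -0.15 and 0.28. Rrm2, a subunit of the enzyme that makes deoxynucleotides, read 39.5, 28.3, 38.1 and 50.1 FPKM. Its ratio was 0.71 in the foot and -0.57 in the back. Lig1, DNA ligase 1, differed by 1.14 ± 0.35. Mcm3, Mcm4 and Prim1, of the replication fork, had foot ratios below 0 and differences of -0.06, -0.10 and -0.31. Among inhibitors of the cycle, Btg1 was higher in the back positive library alone and Btg2 in the back negative library alone, with differences of -1.62 ± 0.26 and 1.21 ± 0.42.

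**Figure D5:**
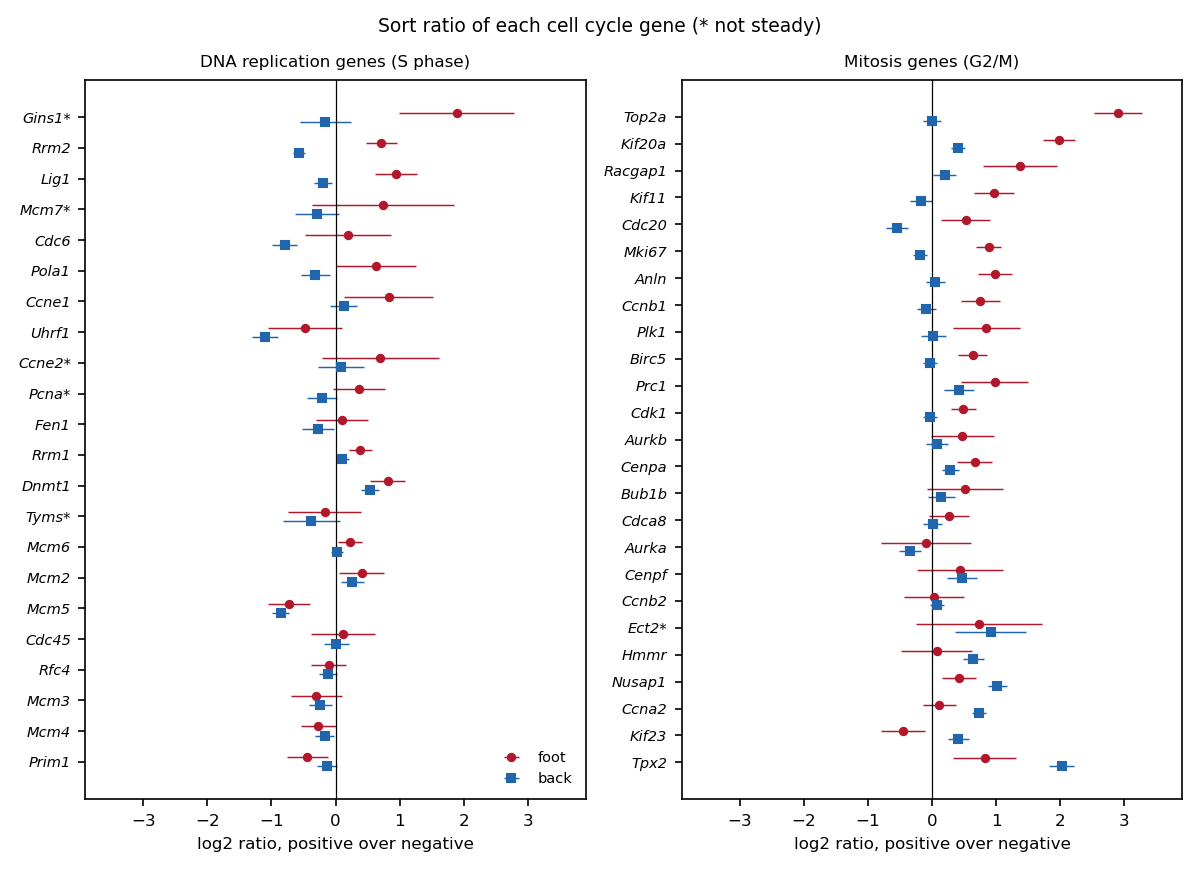
Log2 sort ratios (horizontal axes) of replication genes (left, 1 gene of the list not drawn) and the mitosis genes (right) in the foot (red circles) and the back (blue squares), with half-widths as lines and an asterisk on genes that are not steady. Top2a heads the right panel with 2.90 in the foot and 0.00 in the back, and Tpx2 closes it with 0.82 and 2.02.

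The promoters of 4 mitosis genes with a difference of at least 1 are shown. They were taken because they hold both of the motifs marked, which are known from cell cycle promoters. Each is the 250 bases before the transcription start in RefSeq on GRCm38.p6, written 5′ to 3′ on the gene's strand. Capitals mark TTTGAA (the CHR element of late cell cycle genes) and CCAAT (the site of NF-Y), found on either strand, so that TTCAAA and ATTGG are marked too. The motifs can share at most 1 base at an end. The window of Cdc20 holds 9 bases of annotated exon.
Top2a (chr11:99024190-99024439, minus strand): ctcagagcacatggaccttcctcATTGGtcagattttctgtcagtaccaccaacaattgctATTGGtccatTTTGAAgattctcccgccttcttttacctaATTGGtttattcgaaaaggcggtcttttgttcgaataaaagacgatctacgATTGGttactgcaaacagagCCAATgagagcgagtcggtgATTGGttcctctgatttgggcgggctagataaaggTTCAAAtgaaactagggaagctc
Kif11 (chr19:37376132-37376381, plus strand): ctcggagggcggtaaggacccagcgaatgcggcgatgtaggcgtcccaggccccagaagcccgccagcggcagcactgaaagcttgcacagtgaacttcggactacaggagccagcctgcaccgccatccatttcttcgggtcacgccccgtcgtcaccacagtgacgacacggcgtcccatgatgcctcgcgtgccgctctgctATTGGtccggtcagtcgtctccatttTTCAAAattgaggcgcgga
Cdc20 (chr4:118437344-118437593, minus strand): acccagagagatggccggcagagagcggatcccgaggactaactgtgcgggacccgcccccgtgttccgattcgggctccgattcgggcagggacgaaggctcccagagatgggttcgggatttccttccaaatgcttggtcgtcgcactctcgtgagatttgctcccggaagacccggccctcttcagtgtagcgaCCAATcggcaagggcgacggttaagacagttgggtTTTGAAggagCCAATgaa
Mki67 (chr7:135716380-135716629, minus strand): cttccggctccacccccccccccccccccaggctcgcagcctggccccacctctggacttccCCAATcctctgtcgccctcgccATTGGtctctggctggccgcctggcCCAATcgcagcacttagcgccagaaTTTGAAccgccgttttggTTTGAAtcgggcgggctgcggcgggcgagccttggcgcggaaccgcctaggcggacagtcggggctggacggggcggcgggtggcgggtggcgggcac
Of the 25 mitosis genes 21 had a promoter in the table. CCAAT was found in 18 of these (85.7%) and TTTGAA in 8 (38.1%), against 41.5% and 12.8% of the 4540 members under the rule with a promoter, and 37.5% and 18.3% of all 27025 symbols in the table. Both were found together in 8 of the 21 (38.1%), against 5.18% of the members and 6.45% of all symbols. A motif of TCF and LEF factors (CTTTGAT or CTTTGAA) was also searched. Its form CTTTGAA contains TTTGAA, so the searches were not separate. The TCF and LEF motif was found in 2 of the 21 (9.52%), against 6.17% of the members and 8.63% of all symbols. Among the 11 Wnt feedback and target genes with a promoter it was found in 3 (27.3%). The 4 promoters shown were chosen after the values were seen. A match describes letters in this window and not a bound site.

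Genes that went with the sort in the back alone included genes of high level. Actb (mm9, chromosome 5, 143664794 to 143668433), cytoplasmic beta-actin, read 574, 856, 202 and 1062 FPKM. The back positive library was low, with a foot ratio of -0.31 ± 0.09 and a back ratio of -2.57 ± 0.07. Atp5f1, of the mitochondrial ATP synthase, read 184, 210, 82.4 and 295 FPKM and differed by 2.09 ± 0.18, while the list of 40 oxidative phosphorylation genes had a median difference of 0.03 (-0.40 in the unscaled values). Atf4, a stress-response transcription factor gene, read 64.8, 69.4, 29.9 and 75.3 FPKM, a difference of 1.65 ± 0.24. In each of these 3 genes the back positive library was the lowest. Gnas, which encodes the stimulatory G protein alpha subunit, was likewise lowest there (599, 1035, 434 and 1443 FPKM) and differed by 1.39 ± 0.12. Its foot ratio of -0.53 put it outside the limits for the back alone. Sema3c, a guidance cue for nerves and vessels, read 6.53, 8.32, 10.6 and 2.19 FPKM and differed by -1.84 ± 0.43. Nfia, a nuclear factor of differentiation, read 12.8, 23.9, 56.4 and 17.3 FPKM and differed by -2.09 ± 0.34. With a foot ratio of -0.60 it too fell outside those limits. Hmga2, a chromatin protein of early, growing tissue, read 1.40, 0.667, 11.8 and 1.18 FPKM. It was high in the back positive library, and its ratio was above 0 in both skins, 0.60 ± 0.44 in the foot and 2.50 ± 0.24 in the back. Of transcription factors of limb and dermis, Osr2 and Snai2 differed by -1.42 ± 0.26 and -1.32 ± 0.51 and Snai1 by 1.39 ± 0.73. These were not of the back alone, since their ratios were opposite and under 1 in size in both skins. In foot and back they were -0.56 and 0.85 for Osr2, -0.50 and 0.81 for Snai2, and 0.61 and -0.78 for Snai1. None of 31 limb and trunk Hox genes met the rule: 15 were under the minimum, 5 were listed at 0 in a library and 11 lay in joined loci.

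Genes with like ratios of at least 1 in both skins were 36 higher (0.439%) and 31 lower (0.378%) in the positive libraries. Col12a1, a fibril-associated collagen, read 71.2, 10.5, 45.7 and 10.9 FPKM, with ratios of 2.87 and 1.82. Both positive libraries were high. Fn1, fibronectin, read 199, 23.9, 260 and 103 FPKM, with ratios of 3.25 and 1.14. Apod, a lipid carrier, read 39.8, 16.6, 57.2 and 18.2 FPKM, and Dact1, an intracellular Wnt regulator, 7.50, 2.96, 1.97 and 0.292 FPKM; their differences were 0.02 ± 0.64 and 0.04 ± 0.42. Cdkn1c, the cycle inhibitor p57, read 320, 966, 103 and 225 FPKM. It was lower in both positive libraries by nearly the same ratio, -1.33 ± 0.09 and -1.30 ± 0.09. Of 15 immediate early and stress genes 11 had ratios below 0 in both skins, against 25.4% of all genes. Fos was among them (ratios -1.85 and -1.79), but Nr4a1 was lower in the back alone (-0.09 and -1.34) and Egr1 had opposite ratios of -0.98 and 0.41.

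Most ribosomal protein genes had a back ratio below 0. Of 41 large-subunit ribosomal protein genes 2 had a back ratio above 0 and 39 below, with a median of -0.22, and the foot median was -0.01. Of all genes 51.5% had a back ratio above 0. These counts are for scaled values, and without scaling the back median over all genes moved from 0.01 to 0.17. The 30 small-subunit genes had 1 above and 29 below in the back, with medians of -0.24 in the back and -0.08 in the foot. The median difference was 0.22 for each list and -0.22 and -0.23 in the unscaled values. Single genes lay far from these medians, with differences from -2.45 to 2.23 in the large and from -0.64 to 3.51 in the small subunit. Of the large-subunit genes 1 was at least 1 above and 3 at least 1 below, and of the small-subunit genes 5 were at least 1 above and none below, against 11.1% and 12.1% of all genes. Rps15a differed most among the steady small-subunit genes (310, 353, 184 and 333 FPKM), by 1.11 ± 0.23.

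Summed markers of several other cell types differed between the fractions, and their part in the results above was not tested. The 11 mast cell markers summed to 3.15, 271, 29.6 and 103 FPKM, and 7 of them were at 0 in the foot positive library. Cma1 and Tpsb2, mast cell proteases that were not steady, had differences of -3.93 and -3.49. The 17 skeletal muscle markers summed to 9.30, 50.1, 12.1 and 13.1 FPKM, with Myod1 and Myog listed at 0 in both foot libraries. The 16 macrophage and leukocyte markers summed to 0.788, 5.67, 5.91 and 27.3 FPKM, with 14 listed at 0 in the foot positive and 11 in the foot negative library. The 12 keratinocyte markers summed to 7.83, 1.20, 53.0 and 29.3 FPKM, higher in both positive libraries. In the foot positive library 8 of them were at 0 and Krt10 (not steady) alone read 7.38 FPKM. Krt10 also had the largest gap in the back, at 23.5 FPKM in the positive and 6.63 in the negative library. Of the other keratinocyte markers, Cldn6 was lower and the rest were higher in the back positive library, as deposited. Krt5, Krt14, Krt15 and Krt19 lay in joined loci and were left out. The 12 endothelial markers summed to 1.62, 1.99, 9.79 and 9.01 FPKM, close between the fractions of each skin, with Pecam1 and Cdh5 listed at 0 in both foot libraries. The 11 pericyte and smooth muscle markers had higher sums in both positive libraries (34.5, 23.5, 43.2 and 27.7 FPKM), but as deposited Cspg4 was lower in both positive libraries, Notch3, Mcam, Myh11 and Acta2 were lower in the foot positive library, Des was lower in the back positive library, and Higd1b was listed at 0 in all 4. In bulk sorted cells, fewer cells of a type and less RNA per cell cannot be told apart.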

How the data were processed

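RNA of fluorescence-sorted dermal cells was sequenced in 4 libraries, 1 for each of 4 groups. Per the submitters' processing notes, TopHat and Cufflinks were used on mm9; their versions and the annotation are not given in sources used here. Per the file headers, each deposited table gives FPKM for every gene, its confidence bounds and a status flag, and the confidence level is not stated. Read counts are not used here, so depth is unknown, and precision is given by the authors' bounds.

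FPKM was summed per gene symbol, and a locus naming several genes stayed a single unit (957 of 33134; 499 of the 8199 members). The foot positive table had symbols turned into dates, and 22 were restored by their position and number. Units with another status than OK (459) were left out. Factors were 1.10, 1.32, 0.892 and 0.785 (foot positive, foot negative, back positive, back negative), from 4973 units of at least 5 FPKM in all 4. A half-width is the larger distance on either side of log2(bound + 1) from log2(FPKM + 1), combined in quadrature over libraries. Of the members, 1835 had a value outside its own bounds. The genes, the 51 lists and the naming rule were chosen with earlier results of these data known. Named genes were drawn from the steady genes with the highest and lowest differences of all, the leading ones of each class and list, and the 2 of highest level in each list. Not all genes that this rule picks are named in the text. Pdpn, Nkd1, Dkk2, Dkk3, Mki67, Kif11, Cdc20, Mcm3, Mcm4, Prim1, Col3a1, the pericyte markers and the genes said not to be steady were added after their values were seen. The code was tested on simulated data. Python 3.11.15 was used with pandas 2.3.3 and numpy 2.4.6. Alternatives were the pseudocount, scaling, the filter, the fold limit, the handling of entries and the restriction to steady genes. Some items are not reported here.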

Additional observations from a re-analysis of the deposited data

Results flagged for a closer look

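The foot and back ratios of 11 steady genes were each at least 1 in size and of opposite sign, and the difference between the skins was not tested, since each group holds 1 library. The difference was -3.69 for Fbn1, -3.37 for Hnrnpl, -3.20 for Rab11fip2, -2.79 for Ccnt1, -2.70 for Clu, -2.66 for Ktn1, -2.59 for Dcun1d5, -2.55 for Stx18 and -2.13 for Pdpn. It was 3.51 for Rgs2 and 4.24 for Eny2.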

How the results depend on the processing

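In the order of differences favouring the foot, differences favouring the back, genes that went with the sort in the foot alone, in the back alone, genes with opposite ratios and genes with like ratios, the counts were 906, 996, 877, 174, 52 and 67. They were 464, 481, 414, 103, 11 and 23 with a pseudocount of 5, 1782, 1962, 1785, 501, 126 and 146 with a minimum of 1 FPKM and zeros let in, 374, 365, 317, 90, 16 and 21 with at least 5 FPKM in all 4 libraries, 319, 339, 271, 77, 11 and 22 over steady genes, and 375, 404, 309, 43, 14 and 12 with a fold limit of 3. A pseudocount of 0.1 moved opposite genes to 115 and like genes to 125, and FPKM as deposited moved the first 2 counts to 537 and 1810. Upper-quartile scaling, the largest entry per symbol, and single coding genes only (an alternative added after seeing the data) left all 6 counts within 1.5 times. Of 240 genes picked by the naming rule, with Axin2 among them, none with a difference of at least 1 in size changed sign under the alternatives. Alternatives that changed only the filter or the set of genes left each gene's difference as it was, so they could show no such change. FPKM as deposited moved the median difference over all genes to -0.41, so for genes at that limit it could hardly show one either. Of 39 list medians, none of at least 0.5 in size changed sign, with values as deposited taken relative to the median of all genes. Taken so, the shift common to all genes is removed, and that setting could hardly show a change of direction. It enters the list counts below in the same way. Several smaller list medians had another direction in the unscaled values, as given above. Of 2062 gene and setting pairs, which include those left as they were, 212 moved by the gene's half-width or more. Of 332 list and setting pairs, 28 moved by 0.2 or more, and 23 of the 39 list medians moved by less than that under every alternative run. No paired analysis was possible because each group holds 1 library, and no library could be left out for the same reason. The authors' bounds were widest in the foot libraries.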
